A study of Mus musculus with 15 samples.

Results

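Complement transcripts were followed in mouse olfactory bulbs in which signalling through CRHR1, a receptor for the stress peptide corticotropin-releasing hormone (CRH), had been lowered or raised. The 9 genes were chosen with earlier results of these data known. They were taken by name, as the array probes called C1qa, C1qb, C1qc, C3, C4b, C3ar1, C5ar1, Cfb or Serping1. They were represented by 11 of 55681 probes, and 8 of the 9 were among the 23430 genes tested. C5ar1 was too dim to test. The animals were 15 males of 6 to 8 weeks, with whole bulb RNA of 1 mouse on each array, and 500 nL of an adeno-associated virus (AAV) had been injected 2 weeks earlier.

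The knockout group was 5 CRHR1-/- mice of strain 129S4/SvJae given AAV-flex-GFP. The Cre GFP group was 5 CRHR1-Cre mice of strain C57Bl/6 given the same AAV-flex-GFP, and the labels treat it as standing in for wild type. The active CRHR1 group was 5 CRHR1-Cre mice of strain C57Bl/6 given AAV-flex-(CA)CRHR1, which codes for a constitutively active receptor. A flex cargo is expressed where Cre recombinase is present, and per the labels the CRHR1-positive granule cells, inhibitory neurons of the bulb, carried the cargo. All 3 groups received a virus, and no bulb without virus was analysed here. Because strain and, by the sample titles, the Cre allele changed together with the receptor, their parts in a knockout difference cannot be told apart.

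Complement is a cascade of secreted proteins that tag surfaces for removal. C1q, built from the chains coded by C1qa, C1qb and C1qc, recognises targets and starts the classical pathway through the proteases C1r and C1s, which cleave C4 and C2. C3 is the central protein on which all routes converge, and factor B (Cfb) builds the amplifying protease of the alternative pathway. The C1 inhibitor (Serping1) restrains C1r and C1s, while C3ar1 and C5ar1 are the receptors for the released fragments C3a and C5a. In brain, microglia are the main source of C1q, and reactive astrocytes are a known source of C3 and C4.

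Levels below are log2 signals minus the 75th percentile of the array, so that 0 is the level of that percentile. They were compared between groups for 1 gene at a time and never between genes, because probes differ in their response. Changes are differences of group means (n = 5 each) with their standard error (SE), and the adjusted p is that of limma with Benjamini-Hochberg adjustment over all genes tested, called at 0.05. The 15 arrays had a 75th percentile of 663 to 1172 signal units, 58.7% to 66.9% of probes were well above background, and all 13 neuronal and granule cell markers were well above background on every array. All knockout arrays were on slide 1 together with numbers 1 to 3 of the Cre GFP group, whose numbers 4 and 5 shared slide 2 with all active CRHR1 arrays. Crhr1 itself ranged from 2.99 to 3.32 in the knockout, from 3.48 to 3.86 in the Cre GFP and from 3.57 to 3.83 in the active CRHR1 group. It was lower in the knockout by 0.47 ± 0.09 (limma adjusted p = 0.0118) but still measured, and whether its probes lie in the deleted part or in the viral cargo was not determined. Fewer cells of a type and less RNA per cell cannot be told apart in such bulk samples.

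With active CRHR1 the complement genes were higher throughout the set. Of the 8 genes tested, 8 rose against Cre GFP and 0 fell, by 1.59-fold to 12.2-fold, with a median log2 change of 1.53. Across all genes tested 4.55% rose, 6.07% fell and the median change was -0.07. Since the set was chosen with earlier results of these data known, shares over all genes are given for scale and are not a test. Of the 8, 6 rose at least 2-fold, which 2.3% of all genes did, and for 6 the arrays of both groups did not overlap (11.3% of all genes, 3.52% higher). All 8 had a higher mean, as had 35.8% of all genes. The greatest changes were those of Cfb and C3, and the smallest were those of Serping1 and C3ar1. Between knockout and Cre GFP bulbs 0 of the 8 passed the threshold (limma).

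**Figure D1:**
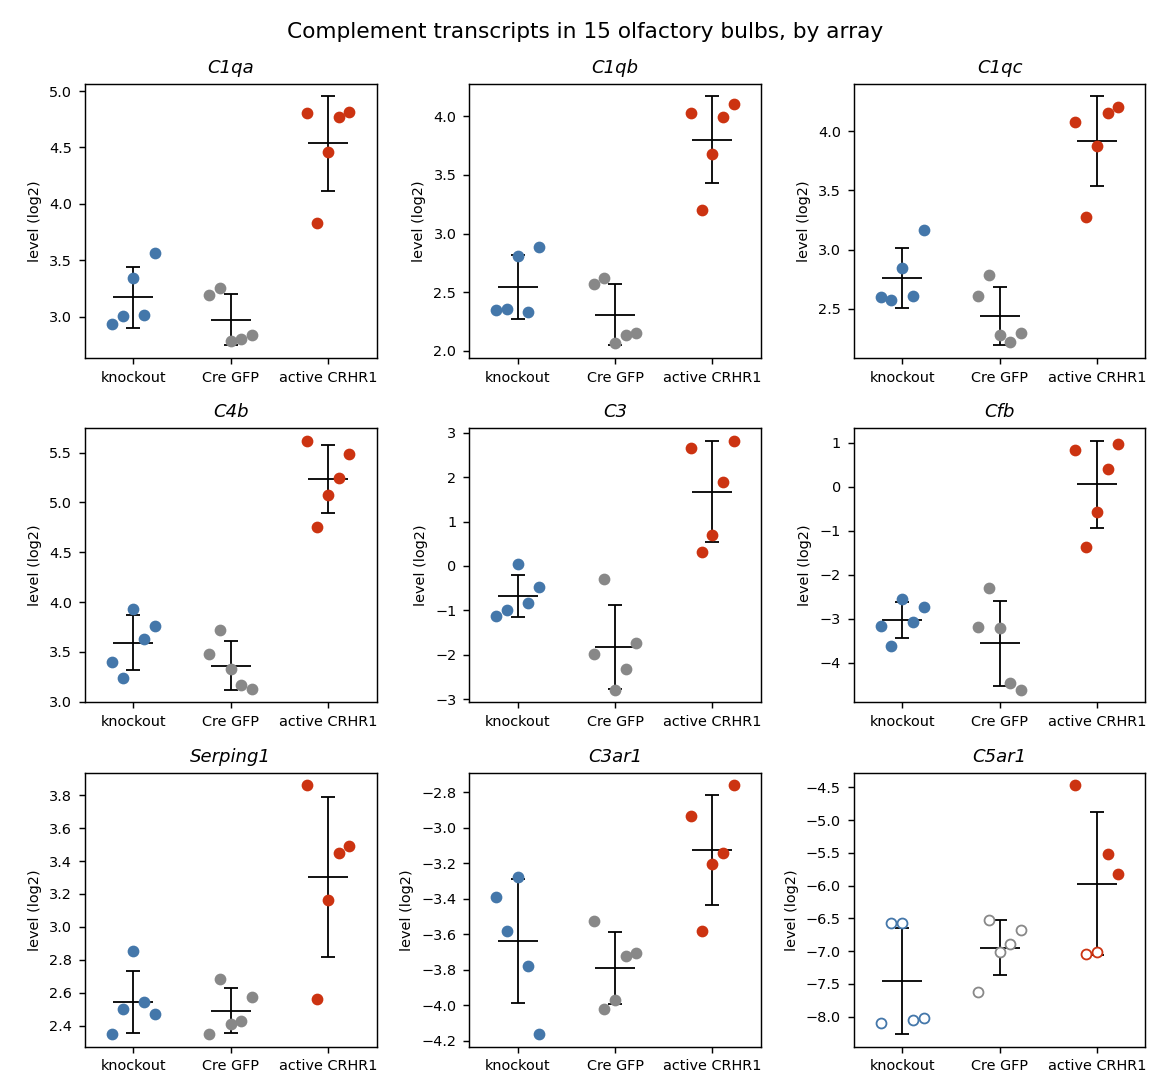
Level of each complement gene (log2 signal minus the array's 75th percentile) on each of 15 arrays, with 1 point per array, a horizontal bar at the group mean and error bars of 1 SD (n = 5). Filled points were well above background and open points were not, and each panel has its own axis. The active CRHR1 points lie above all others for C1qa, C1qb, C1qc, C4b, C3 and Cfb, and C5ar1 was well above background on 3 active CRHR1 arrays only.

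The C1q chains, which form the recognition unit of the classical pathway, lie next to each other on chromosome 4. The C1qa probe is at chr4:136452409-136452468, that of C1qb at chr4:136436578-136436637 and that of C1qc at chr4:136445766-136445825 (mm9, minus strand). Sequences of probes that can be read as coding sequence without a stop are given to show which transcript each value stands for, 5′ to 3′ on the transcript strand.
C1qa: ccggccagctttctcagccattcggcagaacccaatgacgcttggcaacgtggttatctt
C1qb: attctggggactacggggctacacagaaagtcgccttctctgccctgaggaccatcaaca

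C1qa stood at 3.19, 3.25, 2.78, 2.81 and 2.84 on Cre GFP arrays 1 to 5 and at 4.81, 3.83, 4.46, 4.77 and 4.81 on active CRHR1 arrays 1 to 5. Its knockout values were 2.94, 3.01, 3.34, 3.01 and 3.56. Every active CRHR1 bulb lay above every bulb of the other groups, with array 2 the lowest, while knockout and Cre GFP values overlapped. The rise over Cre GFP was 1.56 ± 0.19, or 2.96-fold (limma adjusted p = 0.000271).

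C1qb was measured at 2.57, 2.62, 2.07, 2.14 and 2.15 in the Cre GFP group, at 4.03, 3.20, 3.68, 3.99 and 4.10 in the active CRHR1 group, and at 2.35, 2.36, 2.81, 2.33 and 2.88 in the knockout group. It rose by 1.49 ± 0.18, or 2.81-fold (limma adjusted p = 0.000285). C1qc, the chain that pairs with itself across the C1q trimers, read 2.61, 2.79, 2.28, 2.22 and 2.30 with Cre GFP, 4.08, 3.27, 3.88, 4.15 and 4.20 with active CRHR1, and 2.60, 2.58, 2.84, 2.61 and 3.17 in the knockout. Its rise was 1.48 ± 0.18, or 2.78-fold (limma adjusted p = 0.000279). The 3 chains thus changed by amounts that lay within 1 SE of each other and kept the same order of arrays at the low end, with active CRHR1 array 2 lowest in all.

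C4b, the classical pathway protein cleaved by C1s, had the smallest p of the set and ranked 10 by p among all genes tested in this comparison. Its Cre GFP levels were 3.48, 3.72, 3.32, 3.16 and 3.13, its active CRHR1 levels 5.62, 4.76, 5.08, 5.25 and 5.48, and its knockout levels 3.40, 3.24, 3.93, 3.63 and 3.76. The lowest active CRHR1 bulb lay above the highest of any other group. The rise was 1.87 ± 0.17, or 3.66-fold (limma adjusted p = 7.78e-05). The probe (chr17:34865328-34865387, mm9, minus strand) lists transcripts of both C4b and its near-identical neighbour C4a, which cannot be told apart here.

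C3, the protein at the centre of the cascade, was read by 2 probes on chromosome 17. The brighter one by the mean over all 15 arrays (chr17:57343416-57343475, mm9, minus strand) was printed in 10 spots per array. It gave -1.97, -0.29, -2.79, -2.32 and -1.73 on the Cre GFP arrays, 2.65, 0.30, 0.69, 1.89 and 2.82 on the active CRHR1 arrays, and -1.13, -0.99, 0.04, -0.82 and -0.47 on the knockout arrays. Active CRHR1 bulbs spanned a wide range that still did not overlap the others, and Cre GFP array 2 stood well above its own group. C3 rose by 3.49 ± 0.52, or 11.3-fold (limma adjusted p = 0.000933).

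The other C3 probe, at chr17:57343678-57343737, gave the sequence below and a smaller rise of 2.78 ± 0.44, or 6.89-fold (limma adjusted p = 0.00161 with every kept probe tested). Its active CRHR1 values of 2.03, -0.11, 0.21, 1.34 and 2.24 followed the same order of arrays as those of the brighter probe. With Cre GFP the brighter probe had the lower mean (-1.82 against -1.64) and with active CRHR1 the higher (1.67 against 1.14). The choice of the probe that stood for C3 was thus not independent of the rise.
C3: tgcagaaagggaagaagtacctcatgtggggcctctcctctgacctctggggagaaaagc

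Cfb, the protease that drives amplification of C3 cleavage, changed most. It stood at -3.20, -2.31, -3.21, -4.47 and -4.62 in the Cre GFP group, at 0.84, -1.37, -0.58, 0.40 and 0.96 in the active CRHR1 group, and at -3.18, -3.61, -2.55, -3.08 and -2.74 in the knockout group. It was well above background on all 15 arrays, and its rise was 3.61 ± 0.49, or 12.2-fold (limma adjusted p = 0.000523). The Cre GFP arrays differed by slide, with a mean of -2.91 on slide 1 and -4.55 on slide 2, and within slide 2 the rise was 4.60 (limma adjusted p = 0.0348). The probe spans 357 bases of chr17:34993502-34993858 (mm9, minus strand) for 60 bases of sequence, so it crosses an intron and reads spliced RNA.
Cfb: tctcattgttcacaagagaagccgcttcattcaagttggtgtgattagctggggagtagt

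Serping1, the C1 inhibitor, rose less. Its brighter probe (chr2:84605663-84605722, mm9, minus strand) gave 2.35, 2.68, 2.41, 2.42 and 2.58 with Cre GFP, 3.86, 2.56, 3.16, 3.45 and 3.49 with active CRHR1, and 2.35, 2.50, 2.85, 2.54 and 2.47 in the knockout. Active CRHR1 array 2 lay inside the range of the other groups and the other 4 lay above it. The rise was 0.81 ± 0.19, or 1.76-fold (limma adjusted p = 0.0137), but with slide as a block it was 0.80 and missed the threshold (limma adjusted p = 0.0877). The other Serping1 probe, whose 60 bases span 1507 bases at chr2:84605968-84607474 and so cross at least 1 intron, gave a rise of 0.83 ± 0.18 (limma adjusted p = 0.0110 with every kept probe tested).
Serping1: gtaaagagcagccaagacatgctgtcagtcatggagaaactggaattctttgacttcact

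C3ar1, the receptor for C3a on myeloid cells, showed the smallest rise. It read -3.53, -4.02, -3.97, -3.72 and -3.71 with Cre GFP, -2.93, -3.58, -3.20, -3.14 and -2.76 with active CRHR1, and -3.39, -3.58, -3.28, -3.78 and -4.16 in the knockout (chr6:122798222-122798281, mm9, minus strand). The groups overlapped through active CRHR1 array 2 and Cre GFP array 1. The rise of 0.67 ± 0.18, or 1.59-fold (limma adjusted p = 0.0284), lost its call with slide as a block (0.59, limma adjusted p = 0.157), with arrays centred on their median (0.57, limma adjusted p = 0.0562), and without any of Cre GFP arrays 2, 3 or 5 or active CRHR1 arrays 1, 4 or 5 (limma adjusted p up to 0.0777). Over 15 settings other than leaving out an array, the change ran from 0.38 to 0.71, and in 5 of them the call was lost.

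C5ar1, the receptor for C5a, was well above background on 3 active CRHR1 arrays and on 0 arrays of the other groups (chr7:16832243-16832302, mm9, minus strand). Those 3 arrays, 1, 4 and 5, read -4.46, -5.51 and -5.81, and arrays 2 and 3 read -7.05 and -7.01. Cre GFP values were -7.62, -6.53, -7.01, -6.90 and -6.68, which are only bounds, and knockout values ran from -8.10 to -6.56. The active CRHR1 mean was at least 1.04-fold higher than the Cre GFP bound, a fold close to none. With no filter on dim probes the change over Cre GFP was 0.98 (limma adjusted p = 0.292) and that over the knockout 1.49 (limma adjusted p = 0.0497), both against groups in which C5ar1 was not well above background, so these sizes are not measured folds.

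The sizes held when slide was taken into account for most genes. Among slide 2 arrays alone, with 2 Cre GFP arrays, the rises were 1.72 for C1qa, 1.66 for C1qb, 1.66 for C1qc, 2.09 for C4b and 3.70 for C3. Of the 8 genes, 5 were called there, as were 414 of the 23430 genes tested. C3 missed the threshold (limma adjusted p = 0.0577), as did Serping1 and C3ar1.

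**Figure D2:**
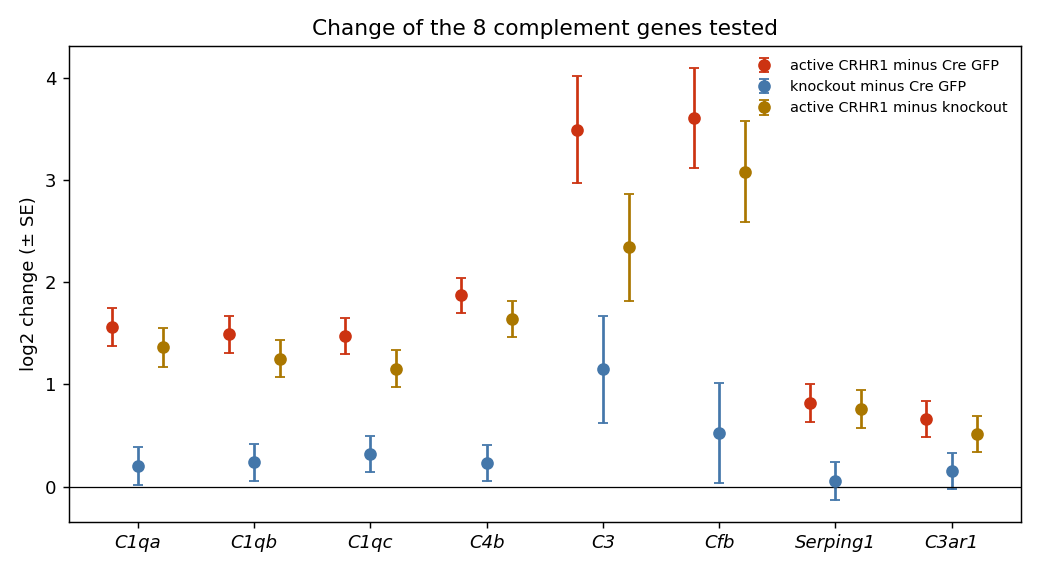
Log2 change of the 8 genes tested in each of 3 comparisons, with error bars of 1 SE from limma (5 arrays per group). Both comparisons with active CRHR1 lie above 0 for all 8 genes, and the knockout changes lie between 0.05 and 1.15 with 0 called.

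In the knockout group, which the labels rank as low in CRH signalling, 0 of the 8 genes differed from Cre GFP (limma), against 4.07% of all genes tested (2.42% higher, 1.65% lower). At an unadjusted p under 0.05 there was 1, C3. All 8 means were higher than with Cre GFP, with a median log2 change of 0.23, against 51.6% of all genes with a higher mean, and the arrays overlapped for all 8 (no overlap for 5.95% of all genes, 3.39% higher). C3 differed by 1.15 ± 0.52 (limma adjusted p = 0.228), and without Cre GFP array 2, the highest of its group, by 1.53 (limma adjusted p = 0.0898). The C1q chains differed by 0.20 ± 0.19 for C1qa, 0.24 ± 0.18 for C1qb and 0.32 ± 0.18 for C1qc, and C4b by 0.23 ± 0.17. Among slide 1 arrays alone these differences were smaller, at 0.10, 0.13, 0.20 and 0.08 in that order. Cfb differed by 0.53 ± 0.49 over both slides but by -0.13 among slide 1 arrays. Serping1 differed by 0.05 ± 0.19, or by less than 0.01 in size and in the other direction with arrays centred on their median, and C3ar1 by 0.15 ± 0.18. None of these differences passed the threshold over the spread between arrays, which does not show that the groups were alike.

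Set directly against the knockout group, active CRHR1 bulbs again had higher levels of all 8 genes, with 8 called, against 28.1% of all genes in either direction and 9.7% higher. This comparison shares the active CRHR1 arrays with the first. The changes were 1.36 ± 0.19 for C1qa, 1.25 ± 0.18 for C1qb, 1.16 ± 0.18 for C1qc, 1.64 ± 0.17 for C4b, 2.35 ± 0.52 for C3 and 3.09 ± 0.49 for Cfb, and for these 6 the arrays did not overlap (19.4% of all genes in either direction, 6.65% higher). Serping1 was higher by 0.76 ± 0.19 (limma adjusted p = 0.0107) and C3ar1 by 0.51 ± 0.18 (limma adjusted p = 0.0433). All knockout arrays were on slide 1 and all active CRHR1 arrays on slide 2, so slide is separated from group only through the Cre GFP arrays. With slide as a block 5 of the 8 were called, as were 794 of the 23430 genes tested. C3 then read 2.69 (limma adjusted p = 0.126), Serping1 0.74 (limma adjusted p = 0.202) and C3ar1 0.39 (limma adjusted p = 0.442). The C3ar1 call was lost in 8 of 14 other settings and in 9 of 15 fits that left out 1 array.

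The bulbs within a group differed together. Active CRHR1 array 2 was the lowest of its group for all 8 genes tested, array 5 was the highest for 6 and array 1 for 2. Cre GFP array 2 was the highest of its group for 7 of the 8, and knockout arrays 3 and 5 were the highest for 5 and 3. Without active CRHR1 array 2 the rises over Cre GFP were 1.74 for C1qa, 1.99 for C4b, 3.84 for C3, 3.97 for Cfb and 1.00 for Serping1. How much virus or active receptor each bulb held was not measured by these probes, and its part in the order of the bulbs was not tested.

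**Figure D3:**
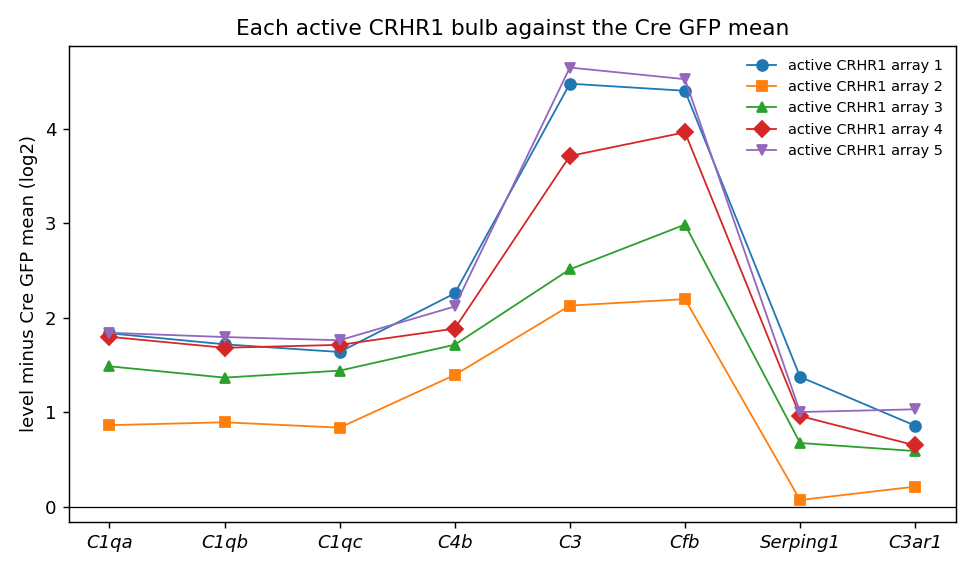
Level of the 8 genes tested on each active CRHR1 array minus the mean of the 5 Cre GFP arrays (log2), with 1 line per array. Array 2 lies lowest for every gene, and the highest is array 5 for 6 genes and array 1 for 2.

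After subtraction of each group's mean, the deviations of the C1q chains over the 15 arrays correlated at 0.96 to 0.98 (Pearson r, 3 pairs). For the 18 other pairs that did not involve C3ar1 the range was 0.67 to 0.91, with a median of 0.81. Within single groups these 18 ran from 0.84 to 0.98 with active CRHR1, from 0.25 to 0.96 with Cre GFP and from 0.18 to 0.97 in the knockout. The 7 pairs with C3ar1 correlated at 0.17 to 0.51 over the 15 arrays, at 0.87 to 0.95 among the 5 active CRHR1 arrays alone, at -0.58 to 0.08 among the Cre GFP arrays and at -0.60 to 0.38 among the knockout arrays. These values are descriptions, since all genes were read from the same RNA, array and scaling.

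Outside the set, the genes whose profiles over the 15 arrays were most like the mean of the C1q chains were Aif1, Fcgr4, Ly86, Fcer1g and Ctss, with Pearson r of 0.989 to 0.991. These r include the difference between groups, and with group means subtracted Aif1, a marker of microglia and macrophages, still stood at 0.957. C4b was most like Fcgr4, Igtp, Tap1, Gbp2 and Nlrc5 (r of 0.986 to 0.989), of which Igtp and Gbp2 code for interferon-inducible GTPases and Tap1 for a peptide transporter of antigen presentation. C3 was most like Ccl5, Cd86, Inpp5d, Acod1 and Glipr1 (0.966 to 0.975), and Cfb like H2-Q10, H2-T23, Bcl2a1d, Fcgr4 and Gm11127 (0.979 to 0.981). Serping1 was most like Tmem140, Fgl2, Gbp8, Nmi and Tff1 (0.961 to 0.974). For C3ar1 the nearest were Casp8, Prkcd, Slc29a3, Ptprc and Adcy7, at 0.882 to 0.915.

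The rest of the complement system moved in few places. Of 61 other complement genes listed by role, 58 had a probe of that name and 42 were tested. With active CRHR1 7 of the 42 rose and 0 fell, with a median log2 change of -0.02. Of all genes 4.55% rose and 6.07% fell (10.6% in either direction). In the classical pathway 5 of 6 rose. These were C1ra (2.24 ± 0.33, limma adjusted p = 0.000840), C1rb (1.82 ± 0.32), C1s1 (1.48 ± 0.32), C1s2 (1.45 ± 0.29) and C2 (0.69 ± 0.17, limma adjusted p = 0.0188), which code for the proteases that act between C1q and C3. C1ra and C1rb are near-identical copies, as are C1s1 and C1s2. The C1s2 probe tested also lists transcripts of C1s1, and the other C1s2 probe was well above background on 0 arrays. A change of C1s2 itself was thus not measured, although its probe is counted among the 5 and the 7.

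Of the complement receptors 2 of 10 rose. Itgax and Itgb2, the chains of a phagocyte integrin that binds fragments of C3, rose by 2.82 ± 0.33 (limma adjusted p = 0.000250) and 1.77 ± 0.18 (limma adjusted p = 0.000171). None of 6 lectin pathway genes, 1 alternative pathway gene (Cfp, 0.53, limma adjusted p = 0.125), 3 terminal pathway genes, 5 soluble regulators and 11 membrane regulators was called (limma). At an unadjusted p under 0.05 there were 1, 1, 2, 1 and 2 of these in that order. The terminal genes C8a, C8b and C9 were well above background on 0 arrays. Among slide 2 arrays alone 2 of the 42 were called, as were 414 of all 23430 genes.

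**Figure D4:**
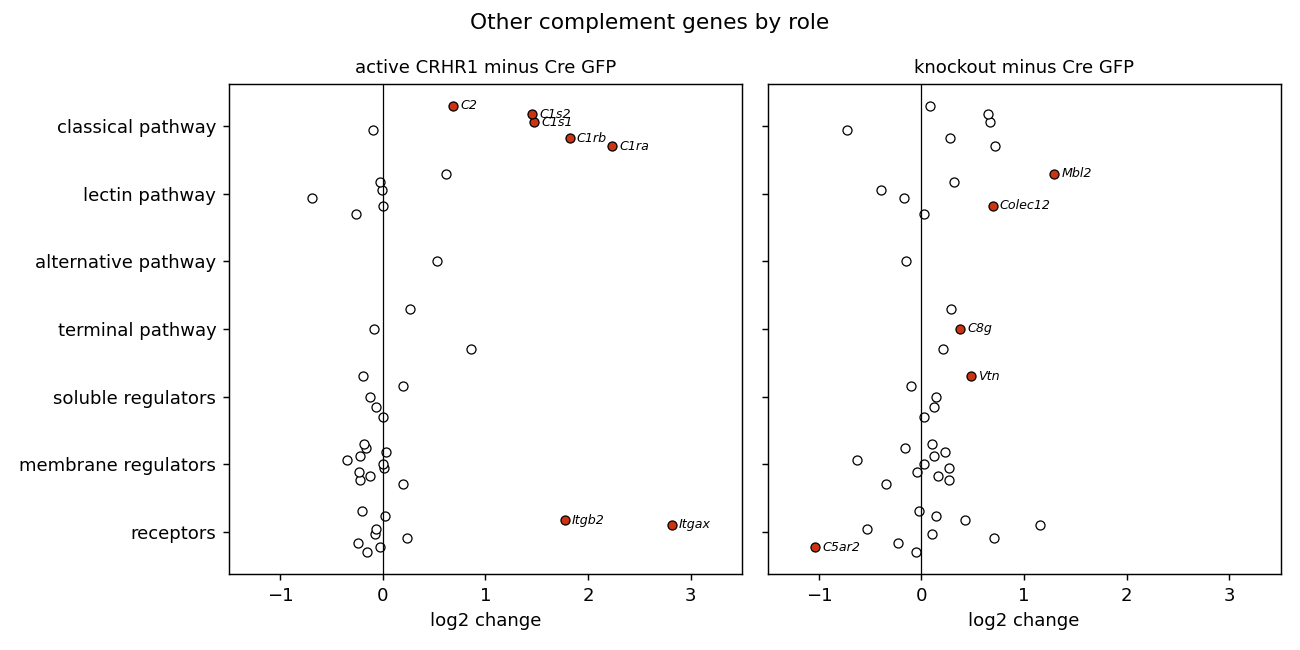
Log2 change of the 42 other complement genes tested, by role, in active CRHR1 against Cre GFP (left) and knockout against Cre GFP (right), with 1 point per gene and called genes (limma adjusted p under 0.05) filled and named. On the left the called genes are 5 of the classical pathway (C1s2 by a probe that also lists C1s1) and 2 receptors, and on the right 5 genes spread over 4 roles.

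In the knockout group 4 of the 42 were higher and 1 lower than with Cre GFP, against 2.42% higher and 1.65% lower of all genes. None of the 5 was called with active CRHR1. Mbl2, a lectin that starts complement on microbial sugars, was higher by 1.30 ± 0.29 (limma adjusted p = 0.0255), and Colec12, a scavenger receptor with a lectin domain, by 0.69 ± 0.17 (limma adjusted p = 0.0326). C8g and Vtn were higher by 0.38 and 0.49. C5ar2, a receptor that binds C5a, was lower by 1.04 ± 0.16 (limma adjusted p = 0.00308). Its other probe was well above background on all 5 Cre GFP arrays and on 0 knockout arrays. That probe changed by -3.84, which is not a measured fold, so the size of the C5ar2 difference depended on the probe. With arrays centred on their median 1 gene was higher and 1 lower, where 388 of all genes were called against 953 in the main fit. Strain cannot be told apart from the receptor's loss. Between active CRHR1 and knockout 7 of the 42 were higher and 8 lower, against 9.7% and 18.4% of all genes. With slide as a block these 15 became 3, while the count over all genes fell from 6576 to 794.

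Markers of some other cell types also changed with active CRHR1, where 4.55% of all genes rose and 6.07% fell. These lists too were chosen with earlier results of these data known. Of 15 microglia markers 8 rose with active CRHR1 and 1 fell, with a median log2 change of 0.40. Aif1 rose by 1.89 and Tyrobp, an adaptor of myeloid receptors, by 1.14, whereas Fcrls fell by 0.71 and Cx3cr1 and P2ry12 differed by 0.17 and -0.27 without a call. The mean of the 15 markers lay between 1.56 and 1.95 on the Cre GFP arrays, between 1.96 and 2.29 on the active CRHR1 arrays and between 1.78 and 2.06 on the knockout arrays. The log2 ratio of the C1q mean to that marker mean has no meaning as a size, since probes differ, but can be set between groups. It lay between 0.72 and 0.96 with Cre GFP, between 0.79 and 1.15 in the knockout and between 1.40 and 2.15 with active CRHR1, where the C1q chains and the marker mean thus changed unequally. The cause was not tested.

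**Figure D5:**
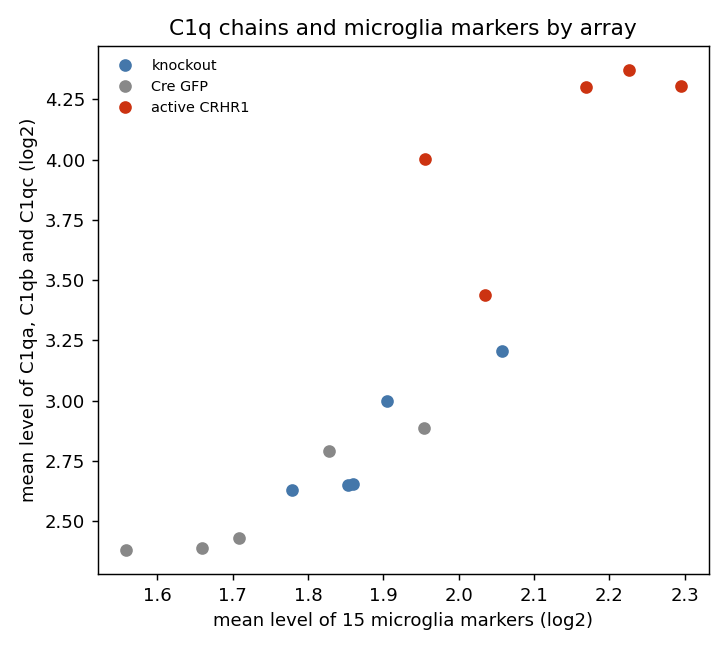
Mean level of C1qa, C1qb and C1qc against the mean level of 15 microglia markers (both log2 signal minus the array's 75th percentile), with 1 point per array. Active CRHR1 arrays have C1q means of 3.44 and above, whereas their microglia marker means start at 1.96, inside the knockout range of 1.78 to 2.06.

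Of 10 markers of infiltrating monocytes and macrophages 3 rose, Plac8 by 3.30, Ms4a7 by 0.93 and Ccr2, which was well above background on 0 Cre GFP arrays, by at least 1.76-fold. Ccr2 passed the filter through the active CRHR1 group alone (4 arrays, with 3 in the knockout). In the knockout it was at least 1.58-fold above the Cre GFP bound, without a call (limma adjusted p = 0.0767). The mean level of the 10 markers lay between -1.58 and -1.19 with Cre GFP, between -1.08 and -0.31 with active CRHR1 and between -1.32 and -0.82 in the knockout. Of 8 T cell markers 5 rose, among them Cd3d by 2.80, Cd2 by 2.32 and Cd5 by 1.79. Another of the 5, Cd3g, passed the filter through the active CRHR1 group alone (4 arrays, with 1 in Cre GFP and 3 in the knockout). Not called were Cd3e (0.12), Cd4 (-0.07) and Thy1 (-0.33). Cd8a was well above background on 2 active CRHR1, 0 Cre GFP and 1 knockout arrays, and Cd8b1 on 2, 1 and 0. Of 4 B cell markers 1 rose, Cd79b by 0.88, and it was also higher in the knockout. Of 9 neutrophil markers 0 were called (limma), nor was any under an unadjusted p of 0.05, and Ly6g was well above background on 3 active CRHR1 arrays and on 0 of the others. Of 11 astrocyte markers Gfap (0.87) and Sox9 (0.29) rose and Gjb6 fell by 0.35. Ly6e, which interferons also induce, was the 1 of 10 endothelial markers that rose. No marker of meningeal fibroblasts (10), choroid plexus (6) or blood (6) was called (limma), with 1 of each under an unadjusted p of 0.05, and 3 of 10 oligodendrocyte, 1 of 10 ensheathing glia and 5 of 13 neuronal markers fell. Over all genes 4.55% rose and 6.07% fell, so a count of 1 in such a short list is not read as a result. The part of any of these cells in the complement rises was not tested.

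A list of 17 genes of cytokine and interferon routes known to act on complement genes was chosen with earlier results of these data known. Of these 12 rose with active CRHR1, as did 4.55% of all genes. In the knockout 1, Osmr, was higher, as were 2.42% of all genes. The cytokines among the 12 were Ifng (4.25), Tnf (3.60), Il1b (2.35) and Il6 (1.78). With Cre GFP these were well above background on 1, 2, 4 and 1 of 5 arrays in that order, so that their changes rest on signals near background there. With active CRHR1 they were well above background on 5, 5, 5 and 4 arrays. Between Cre GFP and active CRHR1, only the latter met the filter of 4 arrays for Ifng, Tnf and Il6. Their calls within the 12 are thus not read as support, and their sizes are not measured folds. Transcription factors among them were Irf1 (2.42), Irf8 (2.07), Spi1 (1.23), Cebpb (0.95), Stat3 (0.34) and Nfkb1 (0.34), and Osmr, a cytokine receptor, rose by 1.04. Whether these changes bear on the complement genes was not tested.

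For 5 of the 9 genes, C1qb, C1qc, C3, C3ar1 and C5ar1, a RefSeq promoter window was at hand, and the others, C1qa, C4b, Cfb and Serping1, are named only. Motifs of the factors above were searched in the 250 bases before each start site on both strands, and they were chosen with these sequences in view. The core of PU.1, the protein coded by Spi1, was searched as GAGGAA and found before C1qb (bases 30 to 25 before the start) and C1qc (193 to 188, on the opposite strand). It occurs in 23.4% of 32536 such windows. A C/EBP motif, TTNCGNAA, was found before C3 (45 to 38) and occurs in 2.06% of windows. The interferon gamma activated site TTCNNNGAA (7.04% of windows), the interferon-stimulated response element (2.98%), the kappa B motif (1.21%) and the cAMP response element TGACGTCA (1.56%) were found in 0 of the 5 windows. The windows with a match follow (GRCm38.p6, minus strand genes, read 5′ to 3′ towards the start, matches in capitals), at chr4:136886201-136886450, chr4:136892915-136893164 and chr17:57228137-57228386.
C1qb: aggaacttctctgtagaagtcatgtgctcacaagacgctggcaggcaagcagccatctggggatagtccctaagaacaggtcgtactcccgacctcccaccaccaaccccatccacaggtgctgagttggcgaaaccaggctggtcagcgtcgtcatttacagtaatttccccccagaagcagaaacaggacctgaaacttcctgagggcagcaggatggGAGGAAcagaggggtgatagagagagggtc
C1qc: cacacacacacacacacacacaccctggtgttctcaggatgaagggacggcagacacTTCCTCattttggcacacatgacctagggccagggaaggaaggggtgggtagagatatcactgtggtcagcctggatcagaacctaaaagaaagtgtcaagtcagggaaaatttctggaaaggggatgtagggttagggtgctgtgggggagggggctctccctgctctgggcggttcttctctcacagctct
C3: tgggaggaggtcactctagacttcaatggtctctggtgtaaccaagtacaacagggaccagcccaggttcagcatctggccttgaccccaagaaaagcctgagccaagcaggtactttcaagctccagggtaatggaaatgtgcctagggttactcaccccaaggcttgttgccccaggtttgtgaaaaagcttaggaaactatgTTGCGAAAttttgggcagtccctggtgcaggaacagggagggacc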

How the data were processed

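Bulb RNA of 15 mice was read on 1-colour Agilent arrays, 1 array per mouse. Per the file headers, the deposited intensity of each spot came from Agilent Feature Extraction 10.7.3.1, which subtracted background and detrended within each array without scaling between arrays, with probe positions in build mm9. The flags of the same program, per the file headers, were deposited as other columns. The authors' series values hold the same signal divided by the array's median over 59305 spots, a ratio found by setting them against the scanner values, with column medians of 0.899 to 0.935.

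Each array had 62976 spots. Control and outlier spots were left out, and the deposited intensity was put on a log2 scale relative to each array's 75th percentile, with the mean taken over repeated spots. The filter asked for 4 of 5 arrays of some group to be well above background and retained 33968 of 55681 probes. Of the kept probes of a gene, the one with the highest mean over all arrays stood for it. Names came from RefSeq through accessions for 27509 probes and otherwise from the array design. The 3 comparisons were fitted together with limma 3.58.1 (lmFit, eBayes) in R 4.3.3, with the R package data.table (version 1.17.8), Python 3.11.15, pandas 2.3.3 and matplotlib 3.10.9. For a bound, the dim group took on each array its own signal or the dimmest signal well above background there, whichever was higher, and the other group's mean was divided by the mean of these.

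The members, gene lists and motifs were chosen with earlier results of these data known. The text names all members, other complement genes called with a log2 change of at least 0.5 in a comparison with Cre GFP, the 5 genes most like each profile, up to 3 markers of smallest p per cell list, and the called cytokine and interferon genes. A few genes covered by this rule are left unreported. Others named (C8g, Vtn, Cfp, C8a, C8b, C9, Cx3cr1, P2ry12, Fcrls, Cd3e, Cd3g, Cd4, Thy1, Cd8a, Cd8b1, Ly6g) were chosen after their values were seen. Slide blocks, other scalings, background corrections, filters, probe rules, variance models and thresholds, and each array left out were tried as alternatives. A simulation of 23430 genes tested the procedure for active CRHR1 against Cre GFP, where 52% of log2 changes of 0.5, 72% of 1, 96% of 2 and 100% of 3 were recovered and 3.03% of calls were false. Per the labels each group holds separate animals, and the number of arrays limits the precision.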

Additional observations from a re-analysis of the deposited data

How the results depend on the processing

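In active CRHR1 against Cre GFP the calls of C1qa, C1qb, C1qc, C4b and Cfb held in every alternative tried, with C1qa between 1.46 and 1.74 and Cfb between 2.78 and 4.60. The number of members called was 8, fell to 5 with slide 2 arrays only, and ran from 7 to 8 without each array in turn. For other complement genes it was 7, rose to 12 with array weights (8 higher, 4 lower) and fell to 2 with slide 2 arrays only, and ran from 6 to 9 without each array. Of all 23430 genes, 2489 were called in the main fit, 5706 with array weights and 414 with slide 2 arrays only. The 12 of 42 with array weights is thus not read as a gain for complement. In knockout against Cre GFP 0 members were called in every alternative. The 5 other complement genes became 2 with arrays centred on their median, 2 with the authors' scaled values, 3 with probes well above background on all 15 arrays, 3 with the replicate block, 2 at an adjusted p under 0.01 and 2 with at least a 2-fold change, and 3 to 6 without each array. They became 3 without knockout array 3 or 4 or Cre GFP array 2 or 3. There the Cfb difference turned to -0.13 with slide as a fixed block (limma adjusted p = 0.915) and with slide 1 arrays only (limma adjusted p = 0.879), and that of Serping1 to -0.0033 with median centring and to -0.024 without knockout array 3. In active CRHR1 against knockout 8 members became 5 with slide as a fixed block and ran from 7 to 8 without each array. The 15 other complement genes became 3 with slide as a fixed block, 8 at an adjusted p under 0.01 and 5 with at least a 2-fold change, and ran from 10 to 16 without each array. Over all genes 6576 called became 794, 2170 and 872 in those 3 settings, in the same order. The stricter thresholds call fewer by construction, and for the other shifts the cause was not tested.

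The labels number the mice 1 to 5 in each group but do not say that a number pairs them. Correlations of same-numbered arrays ran from -0.23 to 0.10 (Cre GFP with active CRHR1), from -0.15 to 0.36 (knockout with Cre GFP) and from -0.07 to 0.20 (knockout with active CRHR1), and 1, 1 and 2 of 5 arrays correlated best with their own number. With the replicate block 8, 0 and 7 members were called in the 3 comparisons. The count of all genes called in active CRHR1 against Cre GFP was 2489 and ranged from 414 (slide 2 arrays only) to 5706 (array weights). Median centring shifted changes by -0.0975 (active CRHR1 against Cre GFP), -0.0565 (knockout against Cre GFP) and -0.0410 (active CRHR1 against knockout). Brightness limits C5ar1, which is only a bound in the Cre GFP and knockout groups.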
